A study of Mus musculus with 4 samples.

Results

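The gastric corpus of mice 3 days after the parietal cell toxicant L635 was compared with that of untreated mice, to describe which cell classes and genes were back near their untreated level and which were not. The comparison used 2 of the 4 single-cell RNA libraries of the study, the library titled as recovery at day 3 and the untreated one. Barcodes counted as cells from 500 UMIs (counted RNA molecules) and 200 genes upwards, with mitochondrial UMIs up to 50%, and 21883 of the 38732 such cells belonged to these libraries, 13897 in the untreated library and 7986 at day 3. All animals were wild-type C57BL6/J mice of 6 to 7 weeks. The day 3 mice had received 1 oral dose of L635 at 350 mg/kg, and the untreated mice received PBS. The other libraries, given only as side values, came from day 1 after the same dose and from day 3 with added AREG (amphiregulin), a ligand of the EGF receptor. The labels do not state how many mice went into a library, nor the dose and route of AREG.

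The corpus mucosa is folded into glands whose cells arise from progenitors in the isthmus. Pit (foveolar) cells cover the surface with Muc5ac mucin, trefoil factor Tff1 and gastrokines, and mucous neck cells make Muc6 mucin. Parietal cells pump acid with the H,K-ATPase of Atp4a and Atp4b and hold many mitochondria, and chief cells at the gland base secrete pepsinogen and, in the mouse, several enzymes otherwise typical of the pancreas. L635 kills parietal cells within days and is used in mice to set off loss of mature chief cells and a metaplasia in which cells carry both neck and chief cell products.

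With 1 library on each side there was no replicate, so no difference below was tested and none carries a p-value. Intervals in parentheses are 95% intervals of counting error only. The libraries held 98893436 and 62591649 UMIs in all, untreated first, and cells had median depths of 2507 and 3013.5 UMIs with 882 and 1184 genes. The median mitochondrial share was 5.51% and 2.93%, and the libraries shared 1 cell barcode. Nearly all cells were epithelial, 13878 and 7977. Marker lists of T, B, myeloid and red blood cells, fibroblasts, muscle, glia and forestomach each summed to at most 5.18 CPM (counts scaled to a library sum of 1e+06) in either library, and 3 of 7 T cell markers were at 0 at day 3. Mast cell markers summed to 14.9 and 10.8 CPM, endothelial markers to 30.3 and 51.4 CPM and mesothelial ones to 20.3 and 18.4 CPM. The part of these cells in the results was not tested. No doublet caller was run and no doublets were removed. A small parietal-like cluster, number 19, held 134 day 3 cells at a median of 16383 UMIs and 21 untreated cells.

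Pit-like cells took a larger share of the epithelium at day 3, neck-like cells were near their untreated share at the main clustering, parietal-like cells took a somewhat smaller share, and chief-like, proliferating-like, endocrine-like and tuft-like cells took smaller shares. Classes were rebuilt here by clustering and named from marker genes. Pit-like cells were 33.8% of untreated epithelial cells (33 to 34.6) and 54.8% at day 3 (53.7 to 55.9), 1.62-fold more. Parietal-like cells were 31.6% (30.8 to 32.4) and 25.7% (24.8 to 26.7). The log2 ratio of shares was -0.30, with bounds of -0.36 and -0.23. The same class was 7.93% at day 1, where 56.6% of epithelial cells stayed unnamed, and 26.3% with AREG. Neck-like cells were 12.4% and 12.1%, with a log2 ratio of -0.03 bounded by -0.13 and 0.08. Chief-like cells were 8.19% (7.73 to 8.65) and 4.05% (3.63 to 4.51), against 0.214% at day 1. Proliferating-like cells, led by mitotic genes, were 10% and 2.28%, 4.4-fold less. Hormone-making endocrine-like cells were 2.8% and 0.589%, and chemosensory tuft-like cells 0.865% and 0.201%, the latter from 16 cells. An intestinal-like cluster held 38 untreated cells and 0 of the 7977 day 3 cells, which allows a share of up to 0.0376% counting 3 cells as the floor and 0.0462% by the exact upper bound. The chief-like, proliferating-like and neck-like results depended on the clustering: at a coarser Leiden resolution of 0.5 the log2 ratios were 0.78, 3.57 and -5.67 instead of -1.02, -2.14 and -0.03. The class names there covered other sets of cells. A neck-like cluster held 3095 untreated cells, with Pga5, Pclaf and Gkn3 among its leading genes. A chief-like one held 1158 day 3 cells, with Chia1, Gkn3 and Muc6 among its leading genes. The proliferating-like cluster held 24 untreated and 164 day 3 cells. A dissociated library gives the make-up of the cells captured, and lost cells cannot be told apart here from cells that were released or captured less well.

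**Figure D1:**
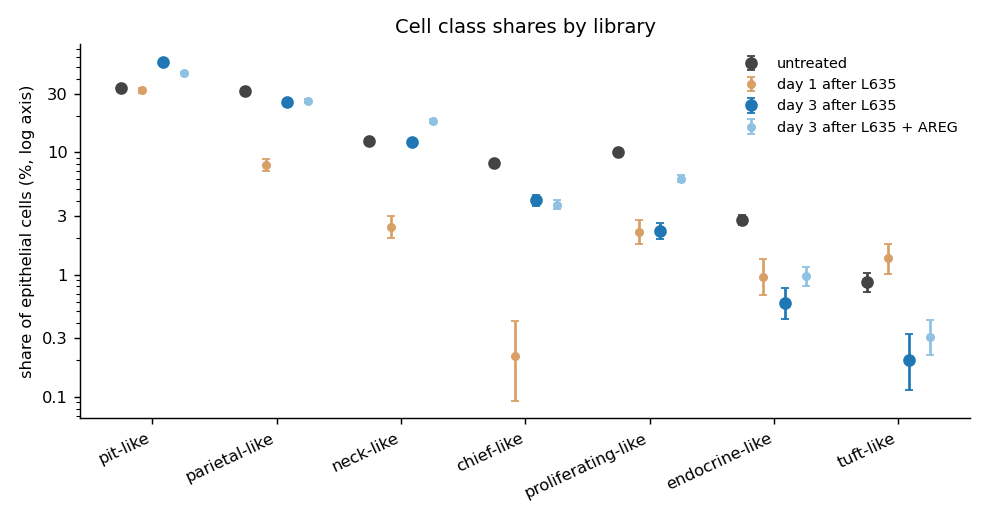
Share of epithelial cells (%, log axis) in each cell class, 1 point per library, with exact Clopper-Pearson 95% intervals of counting error. At day 3 pit-like cells stood above, neck-like cells near, and parietal-like and the remaining classes below the untreated library; 56.6% of day 1 cells were in no class.

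Shares of cells and shares of RNA moved differently. Parietal-like cells carried 1857 UMIs at the median when untreated, compared with 4071 at day 3. Their part of all UMIs was 20.9% and 37.6%; their share of cells was lower. Pit-like cells held 34.4% and 41.5% of UMIs, chief-like cells 15.6% and 7.31%, and proliferating-like cells 19.8% and 3.55%. Sums over all cells therefore mix cell make-up with level per cell. Main results below are therefore given for all cells and also within a class or with class shares held. Holding class shares means that the UMI shares of the pit-like to tuft-like classes stay at their untreated values. Other gene lists are given over all cells only.

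Within a class, the 2 libraries lay mostly in different clusters, and a cluster that is mostly 1 library may be that library and not a type. Untreated pit-like cells lay in clusters 5 (61.4%) and 1 (34.2%), day 3 ones in clusters 3 (46.0%), 0 (31.6%), 1 (14.3%) and 17 (6.33%). Parietal-like cells lay in cluster 2 in the untreated library (74.3%) and in clusters 6 (48.4%) and 7 (39.6%) at day 3. For neck-like cells the main clusters were 8 (95.7%) and 4 (97.1%), for chief-like cells 10 (98.2%) and 15 (88.5%), and for proliferating-like cells 9 (97.0%) and 11 (95.6%), untreated first.

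Counts summed over all cells were compared for the 4983 genes that reached 20 CPM in one or both libraries, as ratios of CPM + 1, day 3 over untreated, on which folds of genes are also given. Of these, 3839 (77.0%) were within 2-fold, 1059 were at least 2-fold higher (21.3%) and 85 at least 2-fold lower (1.71%). Past 4-fold there were 32 higher (0.642%) and 14 lower genes (0.281%). The counting interval of the ratio lay wholly past 2-fold for 854 of the higher and 77 of the lower genes. The balance of higher over lower genes depended on the scaling. The median gene was 0.52 higher on the log2 scale at day 3, and the 20 most abundant genes outside the mitochondrial and ribosomal protein genes took 42.5% of untreated and 29.9% of day 3 UMIs. Higher genes were 92.6% of those past 2-fold in the main scaling, 68.9% without those abundant genes (501 higher, 226 lower) and 33.5% when the ratios were centred on their median (116 higher, 230 lower), a choice made after the data were seen. With class shares held, 756 genes were higher (15.2%) and 44 lower (0.883%), and 712 of the 1059 and 36 of the 85 were still past 2-fold. Gene list medians below are therefore read against 0.52, and list counts against 21.3% higher and 1.71% lower. A gene below 20 CPM untreated was compared only if it reached 20 CPM at day 3, so it had to be higher. A compared gene below 20 CPM at day 3 likewise had to be lower. Within a class the same held at its filter of 50 CPM in either library.

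**Figure D2:**
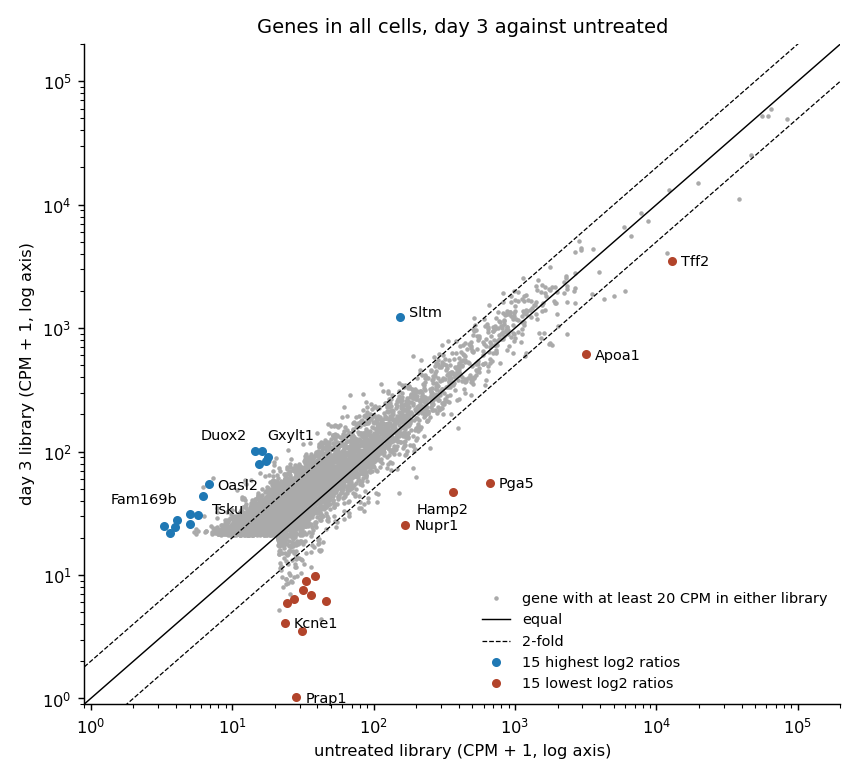
Level of each compared gene (CPM + 1, log axes) in the day 3 library against the untreated library; solid line equal, dashed lines 2-fold, blue and red the 15 highest and 15 lowest log2 ratios among named genes. Most genes lie between the lines and above the diagonal, with Sltm, Oasl2 and Duox2 above the upper line and Pga5, Hamp2, Nupr1, Apoa1 and Tff2 below the lower one.

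Genes of the acid secretion machinery were within 2-fold of the untreated level or higher in the sum over all cells. Of 23 listed genes, 18 were compared, of which 5 were at least 2-fold higher and none lower, with a median log2 ratio of 0.72 and a summed level of 10261 and 16607 CPM. Atp4a, the catalytic subunit of the proton pump, was 2917 CPM (2904 to 2931) in the untreated library and 4313 CPM (4293 to 4333) at day 3. Its partner Atp4b was 2846 CPM (2832 to 2859) in the untreated library and 5047 CPM (5026 to 5069) at day 3. At day 1 these genes were at 873 and 433 CPM. The 5 genes past 2-fold were Kcne2 and Kcnq1, the potassium channel pair that recycles potassium for the pump (87.4 and 252 CPM, then 71 and 149.7 CPM), the water channel Aqp4 (7.74 and 23.6 CPM), the chloride importer Slc12a2 (52 and 126 CPM) and the nuclear receptor Esrrg, a regulator of parietal cell genes (51.9 and 162 CPM). Aqp4 reached 20 CPM only at day 3 and so had to be higher. Once class shares were held, 0 of the 18 were past 2-fold and the median was 0.31.

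Within parietal-like cells (clusters 2, 16 and 20 in the untreated library, 6, 7 and 19 at day 3) the pump genes were close to the untreated level, and 17 of the 18 acid secretion genes compared were within 2-fold. Atp4a was 13413 and 10896 CPM, untreated first, and Atp4b was 12993 and 13014 CPM. Of the 18 acid secretion genes with at least 50 CPM in the class, none was 2-fold higher and 1 was 2-fold lower, beside 3.23% and 2.97% of the 2660 genes compared in the class. Kcnj16, an inward rectifier potassium channel, was that gene, at 482 and 216 CPM. It was not lower in cluster 2, at 671 and 704 CPM, and was 211 and 159.8 CPM in cluster 7. Kcne2 was 389 and 639 CPM and Esrrg 218 and 403 CPM. The anion exchanger Slc26a7, below that level in both libraries, was 26.4 and 4.11 CPM.

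Some parietal-like genes were far below their untreated level at day 3. Hamp2, a hepcidin family gene, was 361 CPM (357 to 366) in the untreated library and 45.7 CPM (43.6 to 47.8) at day 3 over all cells, and 1651 and 115 CPM within parietal-like cells, 14.2-fold lower. Apoa1, the main protein of high-density lipoprotein, was 3188 CPM (3174 to 3202) in the untreated library and 613 CPM (605 to 620.4) at day 3. It made up 1.47% of parietal-like UMIs in the untreated library and 0.158% at day 3. The potassium channel accessory subunit Kcne1 was 104 and 7.91 CPM within the class, the class III myosin Myo3a 145 and 19 CPM, and Ifi27l2b 559 and 81.3 CPM. Kcne1 and Myo3a were below 50 CPM in the class at day 3 and so had to be lower. The muscle-type fatty acid binding protein Fabp3 was 1362 and 600.1 CPM and the cytochrome oxidase subunit Cox7a1 1035 and 484 CPM. Over all cells Fabp3 and Cox7a1 were within 2-fold, with log2 ratios of -0.35 and -0.27. In the other direction, Tfrc, the transferrin receptor for iron uptake, was 147 and 373 CPM in the class and 51.2 and 159 CPM over all cells. The aldo-keto reductase Akr1b8 was 18.8 and 88.4 CPM in the class and the lipid desaturase Scd2 18.3 and 103 CPM. Akr1b8 and Scd2 reached 50 CPM in the class only at day 3 and so had to be higher.

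The lower level of Hamp2 and Apoa1 held in each of the clusters that both libraries filled with at least 50 parietal-like cells. In cluster 7, with 219 untreated and 812 day 3 cells, Hamp2 was 328 and 30.1 CPM and Apoa1 3143 and 376 CPM. Cluster 2, the main untreated cluster, held 3261 untreated cells and 99 of the 2053 day 3 parietal-like cells. There Hamp2 was 2578 and 1107 CPM and Apoa1 20512 and 9729 CPM, so these 99 cells stood far above the other day 3 parietal-like cells. In cluster 6, the largest day 3 cluster, the values were 53.6 and 1188 CPM. The 99 cells also had Sltm at 81.7 CPM, against 1859 CPM in cluster 6 and 118 CPM in untreated cells of cluster 2. Kcne1 and Fabp3 were also lower at day 3 in both clusters, at 152 and 63.9 CPM and 1674 and 1109 CPM in cluster 2. Cox7a1 was lower in cluster 7 and not in cluster 2, where it was 1362 and 1607 CPM. Slc26a7 was 40.4 and 40.9 CPM in cluster 2. In cluster 7 it had only 3 and 2 UMIs, at 12.4 CPM (2.57 to 36.4) and 1.34 CPM (0.162 to 4.83), too few to give a direction. Clusters were made from the same counts, so these values describe the clusters and are no test.

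**Figure D3:**
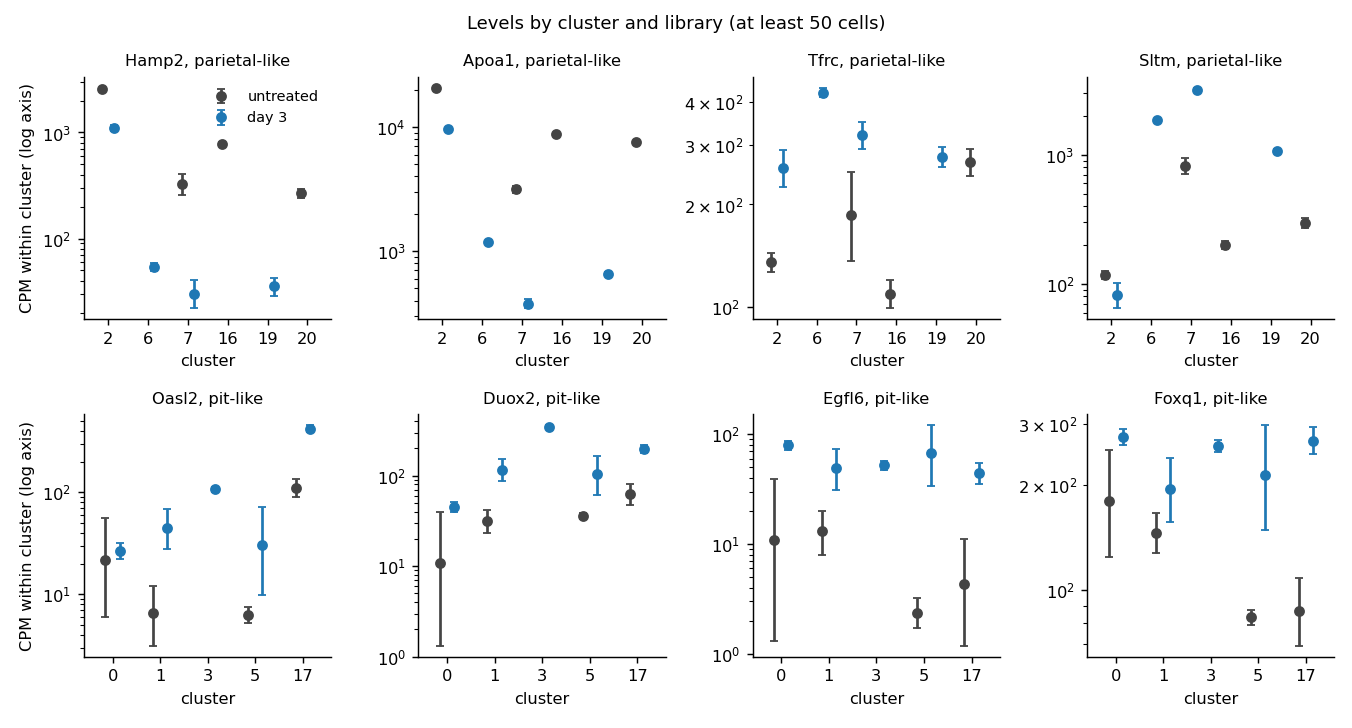
Levels of 4 genes in parietal-like clusters and 4 in pit-like clusters (CPM summed within a cluster and library, log axes), grey untreated and blue day 3, with exact Poisson 95% intervals; only clusters with at least 50 cells of the library are drawn. Hamp2 and Apoa1 were lower and Tfrc higher at day 3 in parietal-like clusters 2 and 7, and Duox2, Egfl6 and Foxq1 were higher at day 3 in pit-like clusters 0, 1, 5 and 17, with intervals of Foxq1 overlapping in cluster 1.

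Most chief cell products were below their untreated level. Of 11 listed genes, 7 were compared, with a median log2 ratio of -0.72, none 2-fold higher and 2 lower. Pgc, the main pepsinogen, was 83464 CPM (83392 to 83536) in the untreated library and 49758 CPM (49691 to 49826) at day 3, with 19658 CPM at day 1. Pga5, a second pepsinogen, was 664 CPM (658 to 670.4) in the untreated library and 55 CPM (52.8 to 57.3) at day 3, 11.9-fold lower. Cblif, the gastric intrinsic factor that binds vitamin B12, was 1767 CPM (1757 to 1778) in the untreated library and 756 CPM (747 to 764) at day 3. The chitinase Chia1 was 3910.5 and 2825 CPM. Of 9 compared genes for pancreatic-type enzymes, 5 were at least 2-fold lower and none higher (median -1.56), and the sum was 85204 and 36980.1 CPM, against 4069 CPM at day 1. The phospholipase Pla2g1b was 38086 and 11058 CPM and the colipase Clps 46473 and 25458 CPM. The lipase Pnliprp2, at 172 and 198 CPM, and the trypsinogen Try4, at 142 and 129.6 CPM, were within 2-fold. A separate list of pancreatic acinar markers summed to 33.6 and 8.96 CPM. Under held class shares, 1 of the 7 chief products was 2-fold lower (Pga5, log2 ratio -3.58) and 1 higher (Dmbt1, 1.25), 2 of the 9 enzymes were lower, and the medians were -0.17 and -0.60.

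In chief-like cells (cluster 10 untreated, clusters 15 and 10 at day 3) the 5 leading secretory products, Pgc, Clps, Pla2g1b, Chia1 and Cblif, took 83.2% of UMIs in the untreated library and 65.1% at day 3. Of the genes compared in the class, 64.3% of 936 were at least 2-fold higher and 1.18% lower, around a median log2 ratio of 1.29, so only genes that stand out from that shift are named. Pga5 was 237 and 4.55 CPM, 42.9-fold lower, and the stress protein Nupr1 902 and 175 CPM. Clusterin (Clu), a secreted chaperone counted among metaplasia markers, was 285 and 2296 CPM, and Dmbt1, a scavenger receptor, 1.98 and 59.2 CPM. Dmbt1 reached 50 CPM in the class only at day 3, and Pga5 only untreated, so Dmbt1 had to be higher and Pga5 lower. Pgc was 308339 and 272648 CPM and Pla2g1b 224194 and 115580.0 CPM. Thinned to 1000 UMIs, a chief-like cell held 149 genes at the median in the untreated library and 343 at day 3.

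Neck cell genes split. Of 8 compared genes, 2 were at least 2-fold higher and 2 lower. Muc6, the gel-forming mucin of neck cells, was 61 CPM (59.1 to 63) in the untreated library and 228 CPM (224 to 233) at day 3, and Gkn3, a gastrokine of neck cells, 188 CPM (185 to 192) in the untreated library and 595 CPM (588 to 602) at day 3. Tff2, the trefoil factor of neck cells that progenitors also make, was 12876 CPM (12848 to 12904) in the untreated library and 3501 CPM (3483 to 3519) at day 3, and the protease inhibitor Wfdc2 53.4 and 23.4 CPM. Muc6 was 91.8 CPM at day 1 and 116 CPM with AREG, and Tff2 was 7316 and 5867 CPM there. Within neck-like cells (cluster 8 untreated, cluster 4 at day 3) Muc6 was 474 and 1915 CPM and Gkn3 1725 and 4206 CPM, while Tff2 was 9481 and 8448 CPM. Outside the class the difference of Tff2 was larger: it was 14009.6 and 3983 CPM in pit-like cells and 31308 and 15032 CPM in proliferating-like cells.

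Chief cell genes within neck-like cells also went both ways. Pgc was 262597 and 180358 CPM, Cblif 2209 and 1300.0 CPM and Pga5 5463 and 371 CPM, while Clps was 20823 and 42981 CPM, Try4 44.9 and 359.7 CPM and Pnliprp2 317 and 662 CPM. Try4 reached 50 CPM in the class only at day 3 and so had to be higher. Cluster 4, the neck-like cluster that both libraries filled, held 73 untreated and 938 day 3 cells. The direction of Pgc turned there, at 148036 and 179810.0 CPM, while Pga5 was 1562 and 364 CPM, Clps 22391 and 43009 CPM, Dmbt1 199 and 364 CPM and Muc6 794 and 1904 CPM. Of 6 pancreatic-type enzyme genes compared in the class, 4 were at least 2-fold higher and none lower, beside 17.9% and 3.72% of its 2339 genes. Sox9, a transcription factor of neck and metaplastic cells, was 76.4 and 205 CPM and Dmbt1 66.1 and 363 CPM. Clu was 5934 and 3121 CPM, lower in this class and higher in the chief-like one. The BMP target Id1 was 259 and 75.3 CPM. Ghrl, Cym and Sst were also among the lowest in neck-like cells, but 1 untreated cell held 70.4%, 51.1% and 49.9% of their untreated counts.

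Pit cell products were near the untreated level. Of 15 compared genes, 13 were within 2-fold and the median log2 ratio was 0.04. Tff1 was 64407 and 59514 CPM, Gkn1 55654 and 52191 CPM, Gkn2 61129 and 51987 CPM and Muc5ac 868 and 1292 CPM. Foxq1, a forkhead factor needed for Muc5ac in pit cells, was 51.1 CPM (49.4 to 53) in the untreated library and 131 CPM (128 to 134) at day 3, and Cym, the chymosin gene, 54.6 and 25.7 CPM. Within pit-like cells Tff1 was 139488 and 133950.0 CPM, Muc5ac 1994 and 2866 CPM and Foxq1 89 and 263 CPM.

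Of 9 listed iodide and dual oxidase genes, 3 were compared and these were higher at day 3. Slc5a5, the sodium iodide importer, was 71.7 CPM (69.6 to 73.9) in the untreated library and 172 CPM (168 to 176) at day 3. Duox2, an oxidase that releases hydrogen peroxide at the cell surface, was 13.6 CPM untreated and 99.99 CPM at day 3, and its maturation factor Duoxa2 14.2 CPM (13.3 to 15.2) in the untreated library and 43.1 CPM (41.1 to 45.1) at day 3. At day 1 the 3 genes were at 16.6, 14.8 and 9.17 CPM, and with AREG at 122, 39.6 and 22.6 CPM. Duox2 and Duoxa2 reached 20 CPM only at day 3, and with no filter the list median was 0.35 instead of 1.53. Within pit-like cells Duox2 was 37.5 and 235 CPM, beside 24.2% higher and 2.04% lower of the 2103 genes compared there. Duox2 reached 50 CPM in the class only at day 3 and so had to be higher. In cluster 1, which held 1604 untreated and 627 day 3 pit-like cells, Duox2 was 31.4 and 116 CPM.

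The genes with the largest ratios within pit-like cells were low in the untreated library. Egfl6, a secreted EGF-repeat matrix protein, was 3.34 and 59 CPM, the cytochrome Cyp2b10 3.96 and 59.9 CPM, the adhesion molecule Ncam1 4.38 and 50.5 CPM, the transcription factor Sim1 4.76 and 53.9 CPM and the small leucine-rich proteoglycan Tsku 11.6 and 96.9 CPM. All of them reached the class filter of 50 CPM only at day 3 and so had to be higher. Il33, an alarmin, was lower, at 59.3 and 20.1 CPM, as was the tubulin gene Tubb5, at 101 and 30.8 CPM. Il33 and Tubb5 were below 50 CPM in the class at day 3 and so had to be lower. Apoa1, Pga5, Pla2g1b and Ghrl, products of other classes, were among the lowest in pit-like cells too. An estimate from free RNA in near-empty barcodes put 1187 of the 1832 CPM of Pla2g1b in untreated pit-like cells down to it. The same estimate was 100.7 of 153.7 CPM for Ghrl, 79.1 of 139.9 CPM for Apoa1 and 12.9 of 84 CPM for Pga5.

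Interferon-stimulated genes were higher at day 3. Of 47 listed genes in the files, 12 passed 20 CPM in either library, of which 6 were at least 2-fold higher and none lower, with a median log2 ratio of 1.02. All 6 were below 20 CPM in the untreated library and passed only through day 3, so this count is a description. Oasl2, an interferon-induced protein of the oligoadenylate synthetase family, was 5.81 CPM (5.22 to 6.44) in the untreated library and 53.4 CPM (51.2 to 55.7) at day 3. The ubiquitin-like modifier Isg15 was 8.12 and 31.2 CPM, the regulator Irf7 7.51 and 22.8 CPM, and the synthetases Oas1a and Oas1g 18.7 and 51.1 CPM and 17 and 49.4 CPM. Oas1a and Oas1g are closely related copies, and how reads were split between them is not known here. All 6 were lower at day 1 than in either library, with Oasl2 at 3.3 and Isg15 at 0.711 CPM, and with AREG they lay between untreated and day 3, at 24.4 and 10.3 CPM. When the class shares were held the median was 0.97 and 6 genes were still past 2-fold.

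Within classes, 5 of the 8 genes compared in pit-like cells were at least 2-fold higher, 0 of 2 in parietal-like, 0 of 2 in proliferating-like, 1 of 2 in neck-like and the 1 in chief-like cells. The 5 in pit-like cells were below the class filter of 50 CPM untreated and so had to be higher. Of the 47 genes, 45 had at least 10 UMIs over both libraries in pit-like cells. All 45 were higher at day 3, 32 of them at least 2-fold, beside 21.4% of the 16854 genes that passed the same filter, and their median log2 ratio was 1.54 against 0.54. A gene low in the untreated library passes this filter only through day 3. A cluster led by such genes, number 17, held 100 cells or 2.13% of untreated pit-like cells and 277 cells or 6.33% at day 3, against 0 at day 1 and 3.25% with AREG. Oasl2 in that cluster was 111 and 420.2 CPM. Without it 25 genes were still at least 2-fold higher and the median was 1.06. Isg15 in pit-like cells was 19 and 68.6 CPM with the cluster and 4.18 and 17.4 CPM without it. Leukocyte marker genes summed to 1.39 and 2.26 CPM over all cells.

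The sequence just upstream of these genes was read from RefSeq promoter windows on the GRCm38.p6 build, which is not the build of the counts. The window was the 250 bases before the annotated start, searched on both strands for GAAA, any 2 bases and GAAA again (TTTC, any 2 bases and TTTC on the other strand), the core of the element bound by interferon-activated factors, with overlaps allowed. It was found in 978 of all 32851 windows (2.98%), and in a window of 936 of 27025 genes (3.46%). Of the 36 interferon list genes with a window, 19 held it, and so did 3 of the 5 matched genes that were at least 2-fold higher over all cells, named here with Oasl2, which had the largest ratio. Isg15 lies at chr4:156200819-156201068 on the minus strand, Oas1a at chr5:120907526-120907775 on the minus strand, Oas1g at chr5:120887614-120887863 on the minus strand and Oasl2 at chr5:114896684-114896933 on the plus strand. Each is written 5′ to 3′ in the direction of its gene, and capitals mark the motif with any overlapping copy.
Isg15: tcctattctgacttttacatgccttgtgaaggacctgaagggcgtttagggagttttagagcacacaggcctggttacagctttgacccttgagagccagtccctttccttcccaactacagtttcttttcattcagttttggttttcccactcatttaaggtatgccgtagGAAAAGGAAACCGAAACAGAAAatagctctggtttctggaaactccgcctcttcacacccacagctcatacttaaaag
Oas1a: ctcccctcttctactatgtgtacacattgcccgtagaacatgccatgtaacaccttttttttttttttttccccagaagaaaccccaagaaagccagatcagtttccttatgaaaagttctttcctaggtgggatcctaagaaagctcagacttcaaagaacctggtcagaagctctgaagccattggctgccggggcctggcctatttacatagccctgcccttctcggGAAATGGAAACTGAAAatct
Oas1g: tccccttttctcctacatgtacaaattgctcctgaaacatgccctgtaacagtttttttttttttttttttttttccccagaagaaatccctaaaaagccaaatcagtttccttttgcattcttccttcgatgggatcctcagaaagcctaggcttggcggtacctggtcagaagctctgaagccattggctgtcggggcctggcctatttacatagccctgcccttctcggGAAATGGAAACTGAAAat
Oasl2: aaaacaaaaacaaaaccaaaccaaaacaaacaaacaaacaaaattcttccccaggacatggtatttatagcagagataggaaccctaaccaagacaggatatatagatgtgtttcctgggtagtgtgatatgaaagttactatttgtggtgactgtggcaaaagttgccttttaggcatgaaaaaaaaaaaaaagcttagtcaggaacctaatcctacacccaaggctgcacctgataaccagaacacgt
Isg15 held 3 overlapping copies, with 56 bases between the last of them and the start. Oas1a and Oas1g each held 2, with 4 and 2 bases between the last copy and the start, and their log2 ratios were 1.41 and 1.48, against 1.82 for Isg15. The Oasl2 and Irf7 windows held no copy, which says only that these letters are not in those 250 bases. A match is a description and not a bound site.

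Cell cycle genes were lower over all cells. Of 11 S phase genes compared, 5 were at least 2-fold lower and none higher, with a median log2 ratio of -0.79, and of 9 G2/M genes 3 were lower and none higher, with a median of -0.76. The replication factor Pclaf was 37.6 and 8.89 CPM, the helicase subunit Mcm3 23.1 and 7.51 CPM, the tubulin regulator Stmn1 106 and 44.6 CPM and the mitotic ubiquitin enzyme Ube2c 79.2 and 38.1 CPM. Pclaf and Mcm3 were below 20 CPM at day 3 and so had to be lower. At day 1 the list sums were above both, 699.7 CPM for S phase genes against 375 untreated and 207 at day 3. With class shares held, none of the 11 S phase genes was past 2-fold, and the G2/M median turned to 0.57. Without use of clusters, each cell was thinned to 500 UMIs and those holding 2 or more UMIs of 10 proliferation markers were counted. They made up 4.37% (4.03 to 4.72) and 2.16% (1.849 to 2.499) of epithelial cells, untreated first. In parietal-like cells, which do not divide, the same share was 1.03% (0.749 to 1.37) and 1.56% (1.07 to 2.19). At day 3 it lay close to the share of all epithelial cells. Whether it is a background for such markers was not tested. Unthinned, the shares of all epithelial cells were 18.5% and 13.2%, at median depths of 2512 and 3014 UMIs.

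The cells that did carry mitotic genes differed between the libraries in what else they made. In proliferating-like cells (cluster 9 untreated, cluster 11 at day 3) Mki67 was 39 and 165 CPM and Ccna2 47.7 and 189 CPM. Mki67 and Ccna2 reached 50 CPM in the class only at day 3 and so had to be higher. Of 26 G2/M genes compared in the class, 15 were at least 2-fold higher and none lower, beside 19.5% and 1.2% of its 2496 genes. The class was clustered on the same counts and named from markers that include Mki67 and Ccna2, so this count is a description. Of 14 S phase genes compared in the class, 0 were at least 2-fold higher and 0 lower, with a median log2 ratio of -0.11. The neck cell genes Gkn3 and Muc6 were 47.8 CPM in cluster 9 and 1011 in cluster 11, and 24.7 and 255 CPM. The pit cell gene Gkn2 was 63419.8 and 31366 CPM, the small proline-rich gene Sprr2a2 22848 and 8650.3 CPM and the mucin-like gene Mucl3 2175 and 732 CPM. The same was read without clusters, a rule chosen after the data were seen, from cells with at least 5 UMIs of G2/M genes making up at least 0.2% of their UMIs, 858 untreated and 247 at day 3. There Gkn3 was 75.2 and 846 CPM, Muc6 39.2 and 259.6 CPM, Gkn2 48300.5 and 19076 CPM and Sprr2a2 22525 and 6108 CPM. Parietal-like cells were 6.76% of these cells without treatment and 17.8% at day 3, neck-like cells 1.98% and 6.88%, and chief-like cells 0% and 4.86%. The part of that mix in the values was not tested.

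Injury and wound genes were within 2-fold of the untreated level or lower at day 3. The 12 compared genes summed to 5625 CPM untreated, 27582 at day 1 and 2602 at day 3, with S100a6 and Sprr2a3 most of each sum. At day 3, 5 were at least 2-fold lower than untreated and none higher, with a median log2 ratio of -0.86. The calcium-binding protein S100a6 was 516 CPM untreated, 13662 at day 1 and 399.9 at day 3, and the galectin Lgals3 28.8, 547 and 29.7 CPM. The 5 lower genes were Nupr1 (166 and 24.4 CPM), Plac9 (35.3 and 10.6 CPM), the cornified envelope gene Sprr2a3 (4251 and 1733 CPM), Il33 (24.3 and 9.46 CPM) and annexin Anxa1 (35.2 and 14.4 CPM). Plac9, Il33 and Anxa1 were below 20 CPM at day 3 and so had to be lower. Of the untreated UMIs of Nupr1, 8676 of 10250 lay in chief-like cells. Once class shares were held, 3 genes were lower and the median was -0.65.

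Several smaller groups had medians above 0.52. Of 5 compared EGF receptor ligand and receptor genes, 4 were at least 2-fold higher: the receptors Erbb2 (15.1 and 36.3 CPM) and Erbb3 (20.7 and 46.8 CPM), and Lrig1 (13.6 and 38.2 CPM) and Errfi1 (14 and 41 CPM), which restrain that receptor family. Erbb2, Lrig1 and Errfi1 reached 20 CPM only at day 3 and so had to be higher; with no filter the list median was 0.86 instead of 1.21. The ligand gene Hbegf was 19.4 and 21.5 CPM. Of 22 cholesterol synthesis and uptake genes, 10 were at least 2-fold higher (median 0.97), among them the sensor Insig1 (34.8 and 95.1 CPM) and lanosterol synthase Lss (14.3 and 43 CPM), and 6 were so with class shares held. Of 11 stem and progenitor genes, 5 were higher and 1, Stmn1, lower. The higher ones included Sox9 (29.4 and 75.2 CPM) and Sox21 (9.02 and 32.8 CPM), both transcription factors. The tight junction scaffold gene Tjp1 was higher (19.6 and 50.5 CPM), in a list where 4 of 7 were. Lss, Sox21 and Tjp1 also reached 20 CPM only at day 3 and so had to be higher. Below that shift, of 25 targets of NRF2, the regulator of oxidant defence, 7 were higher and the median was 0.22. Gclc, the rate-limiting enzyme of glutathione synthesis, was 25.2 and 85.8 CPM, with 190.1 at day 1, while Gsta1 was 3478 and 1896 CPM. Of 5 ERK response genes 1 was higher (0.70), and of 6 MHC class I genes 1 (0.63).

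Lists of general cell functions had medians below 0.52. Of 31 proteasome genes 1 was higher and none lower (median 0.00), of 21 lysosome genes none in either direction (0.16), of 81 cytosolic ribosomal protein genes 4 were higher (0.20), and of 52 nuclear genes of oxidative phosphorylation 1 was higher (0.36). The 12 mitochondrial genes compared were all within 2-fold (0.16), as were the 5 p53 targets (-0.11). Of 15 glycolysis genes 1 was higher (0.29), and of 14 immediate early genes 2 (0.18).

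**Figure D4:**
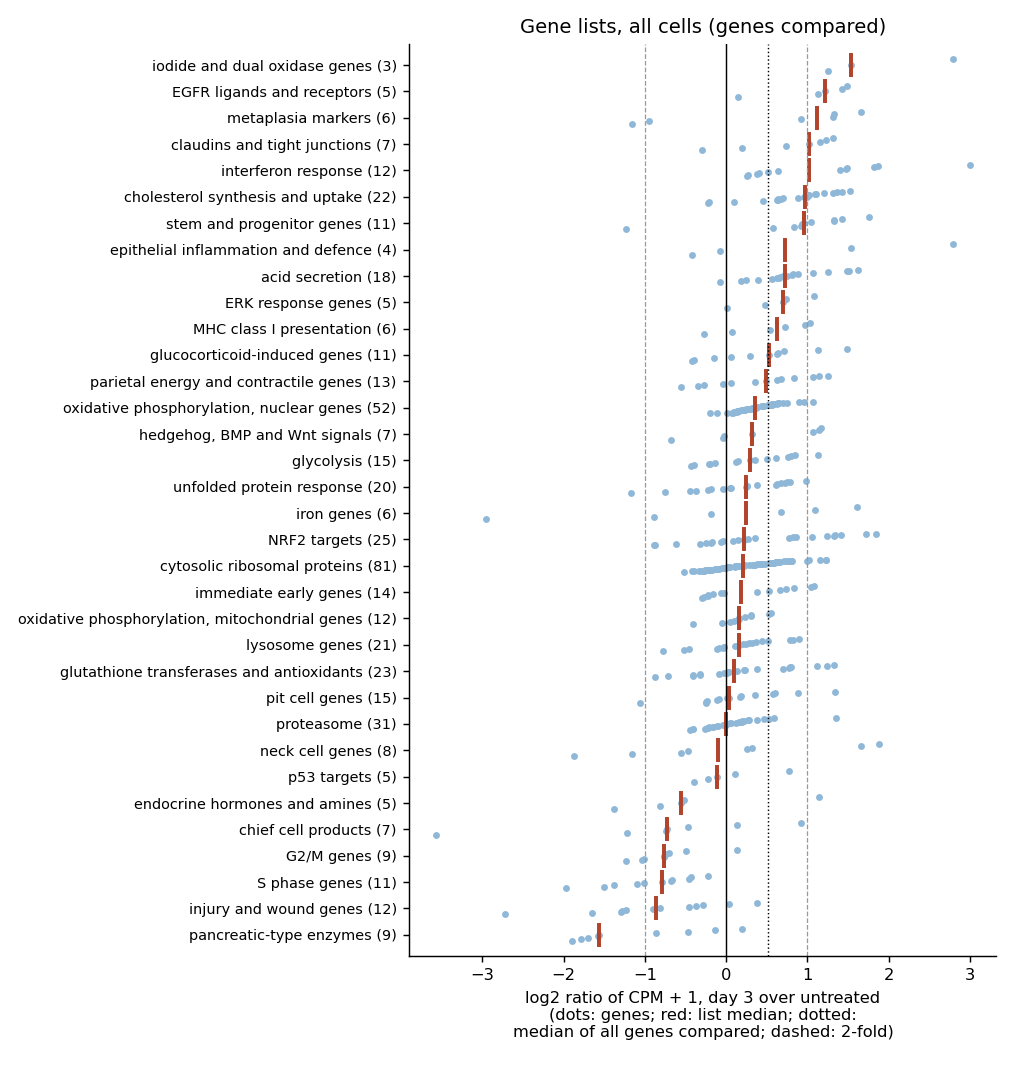
Log2 ratio of CPM + 1, day 3 over untreated, in all cells, for each compared member of 34 gene lists (dots), with the list median in red, the median of all compared genes (0.52) dotted and 2-fold dashed. Iodide and EGF receptor lists have the highest medians, and pancreatic-type enzymes, injury and cell cycle lists the lowest.

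The gene with the largest ratio over all cells among named genes was Sltm, an RNA-binding modulator of transcription, at 152 CPM (149 to 155) in the untreated library and 1235 CPM (1224 to 1246) at day 3. It was 224 CPM at day 1 and 1321 CPM with AREG. The difference was unequal across classes. Sltm was 98.9 and 179 CPM in pit-like cells, 187 and 1693 CPM in parietal-like cells, 252 and 2514 CPM in neck-like cells and 189 and 3404 CPM in chief-like cells. In neck-like cluster 4 it was 1098 and 2519.8 CPM, a smaller ratio than over the class. In pit-like cluster 1 it was 269.8 and 684 CPM. It was also higher at day 3 in pit-like clusters 5 and 17 and in parietal-like cluster 7. In pit-like cluster 0 it was 284 and 252 CPM, with overlapping intervals. In parietal-like cluster 2 it was lower, at 118 and 81.7 CPM. Barcodes under 50 UMIs held it at 232 and 1317 CPM. The next highest included Fam169b (2.32 and 24.1 CPM), Tsku (5.17 and 42.5 CPM), the xylosyltransferase Gxylt1 (15.3 and 100.1 CPM), the transcription factors Arnt2 (2.61 and 20.8 CPM) and Atf5 (4.05 and 24.9 CPM), Ccnb1ip1 (14.4 and 78.4 CPM), Gpatch11 (16.9 and 89 CPM) and the protease Capn1 (16.2 and 82.5 CPM). These genes were below 20 CPM untreated and so had to be higher. Ratios of genes this low depend on the pseudocount: 312 and not 1059 genes were 2-fold higher with 10 CPM in place of 1.

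Among the 15 lowest genes, some lost most of their difference when class shares were held and some did not. Prap1 was 27.5 CPM untreated and 1 UMI at day 3, and S100g was 45.2 and 5.2 CPM, with 75.8% of the day 3 counts in 1 cell. Holding class shares leaves out the intestinal-like cluster, whose leading genes included Prap1 and S100g. Without that cluster the untreated level of S100g was 3.35 CPM, and its log2 ratio under held class shares was 0.26. Resp18 and Vtn, at 34.9 and 5.89 CPM and 26.6 and 5.35 CPM, kept log2 ratios of -1.57 and -1.26. Prima1, which anchors acetylcholinesterase, was 23.6 and 4.92 CPM, and Bex4 30.5 and 6.61 CPM. Prap1, S100g, Resp18, Vtn, Prima1 and Bex4 were below 20 CPM at day 3 and so had to be lower. Of the endocrine genes, ghrelin (Ghrl) was 2326 and 891 CPM and somatostatin (Sst) 639 and 444 CPM, beside the smaller endocrine-like share. The median of 5 endocrine genes was -0.55 over all cells and 0.37 when shares were held.

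**Figure D5:**
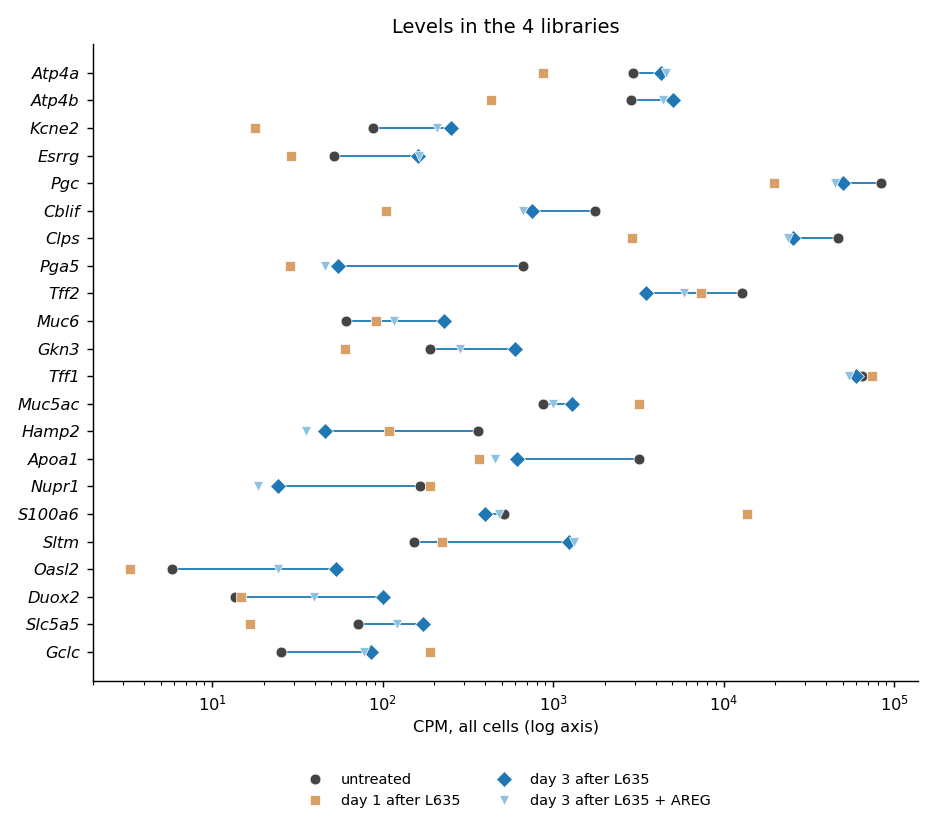
Level over all cells (CPM, log axis) of single genes in the 4 libraries, with a line from untreated to day 3; each point is 1 library. At day 3 the pump genes Atp4a and Atp4b lie at or above untreated, Pgc, Cblif and Clps lie between day 1 and untreated, and Pga5, Hamp2, Apoa1 and Nupr1 lie far below untreated.

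Set beside day 1 and the AREG library, which share the untreated library as their control, the day 3 levels of single genes took several courses. The pump gene Atp4b was 2846 CPM untreated, 433 at day 1, 5047 at day 3 and 4429.8 with AREG. Clps was 46473, 2906, 25458 and 23812 CPM in the same order, between day 1 and untreated. Pga5 was 664, 28.7, 55 and 45.9 CPM, and Apoa1 3188, 365, 613 and 453 CPM, low in all 3 treated libraries. Hamp2 was 361, 108, 45.7 and 35.7 CPM, lower at day 3 than at day 1. Nupr1 was 166, 190.4, 24.4 and 18.6 CPM, near untreated at day 1 and lower in both day 3 libraries. In the untreated library 8676 of its 10250 UMIs lay in chief-like cells, a class with only 8 cells at day 1. The untreated and day 1 values of Nupr1 thus come from different mixes of cells. Duox2 and Oasl2 were highest at day 3 without AREG.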

How the data were processed

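Single-cell RNA was read with a 3′ kit (PIPseq T20, per the labels' protocols) from dissociated stomach corpus epithelium, 1 library per group. The authors deposited raw UMI counts per gene and barcode, and the submitters' processing notes name the mouse build GRCm39. No aligner or counter was named there or in the labels. Cells were barcodes with at least 500 UMIs, 200 genes and at most 50% mitochondrial UMIs. All 4 libraries were clustered together (2000 variable genes, 40 principal components, 15 neighbours, Leiden resolution 1, leidenalg 0.10.2), and clusters were named from markers by a rule revised after the data were seen. Counts were summed over cells, divided by the library sum to CPM, and compared as log2 ratios of CPM + 1 for genes reaching 20 CPM in one or both libraries (50 CPM within a class). Intervals are exact Poisson for CPM and Clopper-Pearson for shares, and cover counting error only. Named genes were the 15 highest and 15 lowest over all cells, the 8 highest and 8 lowest in each class, and members of 34 gene lists. "Class shares held" reweights class levels to the untreated shares of UMIs, not of cells. It covers pit-like, parietal-like, neck-like, chief-like, proliferating-like, endocrine-like and tuft-like cells. Intestinal-like, endothelial and unnamed cells are left out of it in both libraries. Members, lists and rules were chosen with earlier results of these data known. Calculations were tested on simulated data. Python 3.11.15, numpy 2.4.6 and scipy 1.17.1 were used. A few genes are not reported here.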

Additional observations from a re-analysis of the deposited data

Results flagged for a closer look

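Of the listed genes, 5 were at least 2-fold higher in chief-like and at least 2-fold lower in another class at day 3. Of all genes compared, 64.3% of 936 were at least 2-fold higher in chief-like cells. At least 2-fold lower were 2.04% of 2103 in pit-like and 2.97% of 2660 in parietal-like cells. None of these differences was tested, and each class is 1 library a side. Fosb, an immediate early gene, had log2 ratios of 1.75 in chief-like and -1.56 in parietal-like cells, 3.31 apart. Gapdh had 1.49 in chief-like and -1.25 in pit-like cells, 2.74 apart, and the ribosomal protein gene Rpl29 1.26 and -1.09, 2.35 apart. Ghrelin (Ghrl) had 2.06 in chief-like and -1.76 in pit-like cells, 3.82 apart, and somatostatin (Sst) 3.51 in chief-like and -2.56 in parietal-like cells, 6.07 apart. Both are hormones of endocrine cells. In pit-like cells the free RNA estimate for Ghrl was 100.7 of 153.7 CPM untreated and 17.8 of 44.7 CPM at day 3. The part of free RNA in these ratios was not tested. The median of all genes compared in chief-like cells was 1.29, so these ratios are read beside it. Rpl29 lay below that median, and 79 of the 80 ribosomal protein genes compared in chief-like cells were at least 2-fold higher.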

How the results depend on the processing

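The count of genes at least 2-fold higher (1059) was 312 with a pseudocount of 10 CPM, 401 with a filter of 50 CPM, 2248 with no filter beyond 10 UMIs, 501 without abundant genes, 699 with each cell weighted equally and 116 centred on the median, an alternative added after seeing the data. The count lower (85) was 47, 35, 202 and 226 under the first 4, 43 with class shares held (filtered again to 4807 genes; 44 among the 4983) and 230 centred. The parietal-like log2 share ratio (-0.30) was -0.19 with at least 1000 UMIs per cell and -0.36 with no mitochondrial limit. The chief-like ratio (-1.02) was 0.78 at Leiden resolution 0.5, -1.23 with at least 1000 UMIs and -3.74 with the 2 libraries clustered alone. The neck-like ratio (-0.03) was -5.67 at resolution 0.5, 0.11 with no mitochondrial limit and 0.29 with the 2 libraries alone. The pit-like ratio (0.70) was 0.74 at resolution 0.5, 0.83 at 2, 0.91 with at least 1000 UMIs, 0.75 with at most 20% mitochondrial UMIs, 0.83 with no such limit and 0.64 with the 2 libraries alone. The proliferating-like ratio (-2.14) was 3.57 at resolution 0.5, -2.40 at 2 and -2.54 with at least 1000 UMIs. List medians changed sign without abundant genes for NRF2 targets (-0.0657), unfolded protein response (-0.0805), immediate early genes (-0.15), glycolysis (-0.0413), glutathione transferases (-0.20), iron genes (-0.089) and lysosome genes (-0.16). With class shares held they did so for glycolysis (-0.0631), mitochondrial oxidative phosphorylation genes (-0.29), parietal energy genes (-0.13), glutathione transferases (-0.0444), endocrine genes (0.37) and G2/M genes (0.57), and with no filter for neck cell genes (0.32) and p53 targets (0.50). The cause was not tested. No paired analysis was possible because each group has 1 library. With 1 library a side, the spread between animals is unknown.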

Other observations

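Glutathione transferase and antioxidant genes went both ways within 1 family. Of 23 compared, 3 were at least 2-fold higher and none lower, with a median log2 ratio of 0.10. Gsta2 was 150.2 CPM untreated and 357 at day 3, Gstm3 13.7 and 35.9 CPM and the microsomal transferase Mgst2 268 and 585 CPM, while Gsta1 and Mgst3 were 3478 and 1896 CPM and 2649 and 1608 CPM. Gstm3 reached 20 CPM only at day 3 and so had to be higher. The transferases include near-identical copies between which reads may be split.

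Of 6 compared iron genes, Tfrc and Ireb2, an iron-sensing regulator, were higher (11.4 and 25.6 CPM for Ireb2), and the ferritin chain Ftl1 was 1529 and 829 CPM. Ireb2 reached 20 CPM only at day 3 and so had to be higher. Of 7 compared hedgehog, BMP and Wnt signal genes, 3 were at least 2-fold higher and none 2-fold lower. The list median was 0.32, and 3 genes had log2 ratios below 0. Shh and Ihh, hedgehog ligands of the corpus epithelium, were 11.2 and 24.5 CPM and 13.8 and 31.6 CPM, and Bmp2 was 8.38 and 20 CPM. Shh, Ihh and Bmp2 reached 20 CPM only at day 3 and so had to be higher. In neck-like cells the BMP targets Id2 and Id3 were 187 and 49.6 CPM and 275 and 98.4 CPM. Of 20 unfolded protein response genes only Creld2 was past 2-fold, at 84.1 and 36.8 CPM. Chgb, a granin of endocrine cells, was 36.4 and 81.6 CPM although the endocrine-like share of cells was lower.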
